A study of Rattus norvegicus with 12 samples.

Results

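The genes described here are 7 that are widely read as signs of cell proliferation: Mki67, Top2a, Ccnb1, Cdk1, Ccna2, Pcna and Ccnd1. They were taken as a fixed list of Ensembl rat gene identifiers, and all 7 were present among the 21698 genes of the count table. Neither the table nor the RefSeq gene list used here pairs these identifiers with symbols, so the names rest on the list itself. RNA-seq had been done on 2 rat kidney lines, an epithelial one, NRK-52E, which stands in for the tubule, and a fibroblast one, NRK-49F. The 4 groups held 3 libraries each: NRK-52E given vehicle, NRK-52E given cisplatin at 40 µM, NRK-49F in medium from untreated NRK-52E (untreated medium) and NRK-49F in medium from NRK-52E given 40 µM cisplatin (cisplatin medium). All cultures were in DMEM with 5% FBS. Cisplatin is a platinum drug that crosslinks DNA. The labels give 6 h of exposure at 50% confluence, a rinse and 24 h in fresh medium, whereas the design text gives 24 h of treatment; neither source says which held for the NRK-52E cells that were sequenced. Each line is a single established line, so the results hold for these cultures only.

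Total counts ranged from 9684887 to 12549675 per library. No label states that replicate libraries are from different cultures; the p-values then reflect only how these libraries varied, and that variation may be technical. Markers of epithelial cells, fibroblasts and other cells were not analysed here for want of names, so the labelled cell types were not checked.

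A dividing cell passes from G1 through DNA synthesis (S) and G2 to mitosis (M), driven by cyclins that bind and activate cyclin-dependent kinases. Cyclin D1 (Ccnd1) acts in G1, where it joins growth signals to the release of E2F factors, and is not itself a mark of cells in S or M. PCNA (Pcna) is the sliding clamp of the replication fork and also serves DNA repair. Cyclin A2 (Ccna2) acts in S and G2, and cyclin B1 (Ccnb1) with CDK1 (Cdk1) drives entry into mitosis. Topoisomerase II alpha (Top2a) untangles replicated chromosomes, and Ki-67 (Mki67) coats mitotic chromosomes and is the common histological mark of cycling cells. Several of these genes are known to be switched off together in resting cells through a short promoter element, the cell cycle homology region. Words of this region include TTTGAA and TTCGAA, and the CCAAT box bound by NF-Y is another short element of such promoters.

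The promoters of the 7 genes were read from RefSeq (GRCr8), which held 5 of them. Ccna2 and Ccnd1 were not in that table. Each window of 300 bases ran from 250 before to 50 after the table's start site. The runs below are given 5′ to 3′ on the gene's strand and stop short of the annotated gene, except for Mki67, where a run of 30 bases inside the annotated gene is shown because a longer transcript begins further upstream. Capitals mark the word CCAAT, which reads ATTGG from the other strand. They also mark the words TTTGAA, which reads TTCAAA from the other strand, and TTCGAA, which reads the same from both.
Mki67 (chr1:199952684-199952713, minus strand): gaaTTTGAAccgccgttttcgTTTGAAttg
Top2a (chr10:84473094-84473343, minus strand): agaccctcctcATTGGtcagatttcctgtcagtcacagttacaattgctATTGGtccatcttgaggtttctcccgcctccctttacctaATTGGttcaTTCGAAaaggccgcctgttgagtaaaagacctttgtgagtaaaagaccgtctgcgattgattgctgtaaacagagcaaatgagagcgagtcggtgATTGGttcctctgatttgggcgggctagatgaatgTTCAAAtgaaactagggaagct
Ccnb1 (chr2:33655226-33655475, minus strand): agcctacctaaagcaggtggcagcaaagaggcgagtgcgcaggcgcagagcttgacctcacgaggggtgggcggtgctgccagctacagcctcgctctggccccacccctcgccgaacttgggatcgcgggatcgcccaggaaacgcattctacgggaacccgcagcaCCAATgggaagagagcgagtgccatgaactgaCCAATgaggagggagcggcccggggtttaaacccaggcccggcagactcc
Cdk1 (chr20:19265043-19265251, plus strand): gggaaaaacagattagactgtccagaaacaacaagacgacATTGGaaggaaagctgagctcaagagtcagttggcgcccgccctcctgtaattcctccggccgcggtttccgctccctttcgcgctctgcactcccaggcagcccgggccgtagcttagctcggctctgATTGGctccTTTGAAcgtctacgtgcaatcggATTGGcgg
Pcna (chr3:139955821-139956070, minus strand): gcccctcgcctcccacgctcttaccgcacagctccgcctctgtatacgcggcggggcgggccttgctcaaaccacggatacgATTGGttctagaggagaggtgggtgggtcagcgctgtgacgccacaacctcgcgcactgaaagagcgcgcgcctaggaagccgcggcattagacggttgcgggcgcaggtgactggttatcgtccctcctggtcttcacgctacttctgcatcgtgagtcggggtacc

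Both strands of each window were searched, and overlapping matches were allowed. CCAAT was in 5 of the 5 windows and in 37.5% of the 33469 windows of the table. TTTGAA was in 3 of 5 (Mki67, Top2a and Cdk1) against 18.3% of all windows, and TTCGAA in 1 of 5 (Top2a) against 1.69%. CCAAT together with TTTGAA or TTCGAA was in the same 3 windows, against 7.95% of all. The E2F-type word TTTNNCGC, with C or G at each N, was in 1 of 5 (Cdk1) against 2.14%. In Top2a the TTCAAA began 22 bases before the start site and the nearest ATTGG 57 bases before it. In Cdk1 TTTGAA began 72 and 16 bases before the start site, and the one at 16 lies outside the run shown. The Cdk1 ATTGG words began 210, 81 and 49 bases before it. In Ccnb1 the 2 CCAAT words began 82 and 50 bases before the start site, with neither TTTGAA nor TTCGAA in the window. Other words of the cell cycle homology region were not searched for, in Ccnb1 or in any other window. The Pcna window held 1 ATTGG, 168 bases before the start site. In Mki67 the CCAAT or ATTGG words began 189, 167, 142 and 94 bases before the start site, and none lies whole in the run shown. These matches describe the letters only, and whether they bear on the changes in level was not tested.

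**Figure D1:**
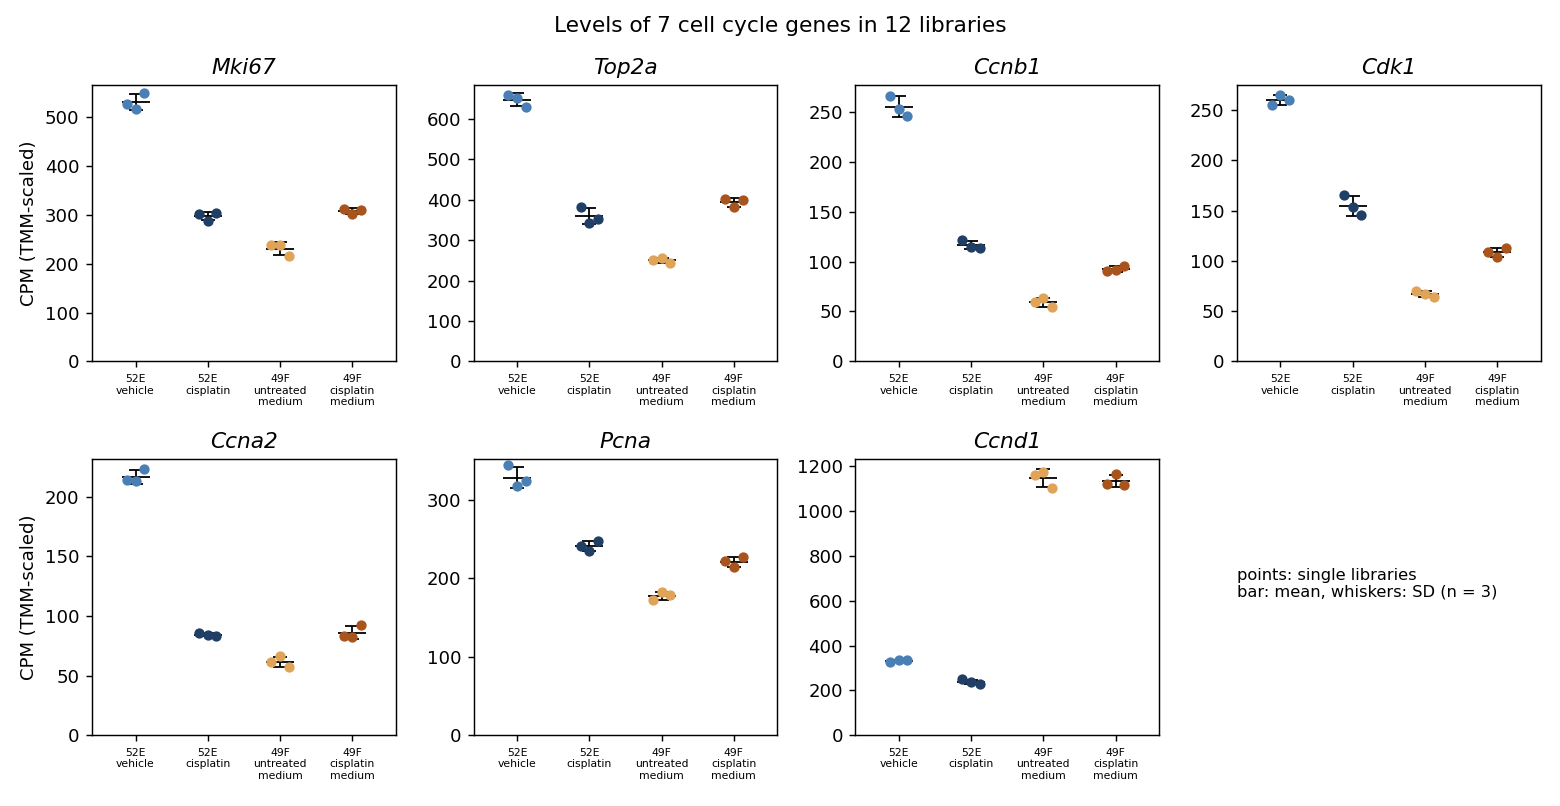
Level of each of the 7 genes (y axes, CPM on TMM-scaled library sizes, each starting at 0) in the 4 groups (x axes), with points for single libraries, a bar for the mean and whiskers for the SD (n = 3). Mki67, Top2a, Ccnb1, Cdk1, Ccna2 and Pcna are highest in NRK-52E vehicle and lowest in NRK-49F untreated medium, whereas Ccnd1 lies at 1103 CPM or above in NRK-49F and at 335 CPM or below in NRK-52E.

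The first comparison asked what cisplatin did to these genes in the epithelial cells. All 7 were lower with cisplatin than with vehicle, from 2.60-fold lower for Ccna2 to 1.38-fold lower for Pcna. The G1 cyclin Ccnd1 and the clamp gene Pcna had the smallest falls, and Mki67, Top2a, Ccnb1, Cdk1 and Ccna2 were between 1.70-fold and 2.60-fold lower. In bulk RNA, fewer cells that express a gene and less of its RNA per cell cannot be told apart. The edgeR quasi-likelihood test called all 7 lower at a Benjamini-Hochberg adjusted p below 0.05, a call made for 37.6% of the 12508 genes tested. The median log2 fold change of the 7 was -0.85, against 0.01 for all genes tested.

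Levels are given as CPM, counts scaled to a common library size, with sizes adjusted by TMM over all 12 libraries. Ccna2 (ENSRNOG00000015423) stood at 214, 213 and 224 CPM in the 3 vehicle libraries and at 85.6, 84.1 and 83.1 CPM in the cisplatin libraries. The means were 217 ± 5.81 and 84.3 ± 1.24 CPM (SD, n = 3 each), and the log2 fold change was -1.38 (standard error 0.05, edgeR adjusted p = 1.49e-24). Its lowest vehicle library thus lay far above its highest cisplatin library, and only 3.65% of genes tested had a lower log2 fold change.

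Ccnb1 (ENSRNOG00000058539) stood at 266, 253 and 246 CPM with vehicle and at 122, 115 and 114 CPM with cisplatin, groups that did not overlap. Its log2 fold change was -1.14 (standard error 0.05, edgeR adjusted p = 4.01e-22), a level 2.21-fold lower. Cdk1 (ENSRNOG00000000632), which encodes the kinase partner of cyclin B1, went from 255, 265 and 260 CPM to 165, 153 and 145 CPM. Its log2 fold change was -0.76 (standard error 0.05, edgeR adjusted p = 4.19e-17).

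The 2 chromosome genes fell by similar amounts. Mki67 (ENSRNOG00000028137) was at 527, 517 and 550 CPM with vehicle and at 301, 288 and 305 CPM with cisplatin, a log2 fold change of -0.85 (standard error 0.04, edgeR adjusted p = 1.09e-19). Top2a (ENSRNOG00000053047) was at 660, 652 and 630 CPM with vehicle and at 383, 343 and 353 CPM with cisplatin, a log2 fold change of -0.86 (standard error 0.04, edgeR adjusted p = 1.33e-19). In each the cisplatin libraries were all below the vehicle libraries, and about 1 in 10 of the genes tested had a lower log2 fold change (10.5% for Mki67 and 10.2% for Top2a).

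Pcna and Ccnd1 had the smallest changes of the 7. Pcna (ENSRNOG00000021264) was at 344, 318 and 324 CPM with vehicle and at 242, 234 and 247 CPM with cisplatin, a log2 fold change of -0.46 (standard error 0.04, edgeR adjusted p = 5.59e-12). Ccnd1 (ENSRNOG00000020918) was at 326, 334 and 335 CPM with vehicle and at 249, 237 and 230 CPM with cisplatin, a log2 fold change of -0.49 (standard error 0.04, edgeR adjusted p = 7.54e-13). Both groups of libraries stayed apart, but 23.5% and 22.3% of genes tested had a lower log2 fold change than Pcna and Ccnd1. Neither of these 2 genes passed a test against a 1.5-fold change (edgeR glmTreat adjusted p = 1 for each), whereas the other 5 did; that test called 13.1% of genes lower. For all 7 genes the groups did not overlap and cisplatin was lower, which held for 37.5% of genes tested.

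The second comparison asked how medium from cisplatin-treated epithelial cells acted on the fibroblasts. Here 6 of the 7 genes were higher in cisplatin medium than in untreated medium, from 1.62-fold for Cdk1 to 1.25-fold for Pcna, and Ccnd1 was not called. Pcna, Mki67, Top2a, Ccnb1, Cdk1 and Ccna2 were thus lower with cisplatin in NRK-52E and higher with cisplatin medium in NRK-49F. A call of higher was made for 30.8% of the 11525 genes tested (edgeR quasi-likelihood test, adjusted p below 0.05). The median log2 fold change of the 7 was 0.49, against 0.02 for all genes tested. With library size as the only scaling the median of all genes moved by 0.20, and directions in NRK-49F are therefore relative to that bulk. With that scaling all 7 genes were called higher, but so were 51.3% of genes tested.

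Cdk1 stood at 69.7, 66.8 and 63.9 CPM in untreated medium and at 109, 103 and 112 CPM in cisplatin medium. The means were 66.8 ± 2.92 and 108 ± 4.55 CPM (SD, n = 3 each), and the log2 fold change was 0.70 (standard error 0.05, edgeR adjusted p = 1.38e-13). Among genes tested, 8.65% had a higher log2 fold change. Ccnb1 rose with it, from 59.0, 63.9 and 54.7 CPM to 90.4, 91.3 and 95.8 CPM, a log2 fold change of 0.65 (standard error 0.06, edgeR adjusted p = 6.14e-12).

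Ccna2, the gene that fell furthest in NRK-52E, rose by less here. It was at 61.0, 66.1 and 57.2 CPM in untreated medium and at 82.8, 82.7 and 92.7 CPM in cisplatin medium, a log2 fold change of 0.49 (standard error 0.06, edgeR adjusted p = 9.93e-09). The third cisplatin-medium library was the highest, and the groups did not overlap.

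Top2a was at 250.0, 257 and 243 CPM in untreated medium and at 401, 381 and 400.2 CPM in cisplatin medium, a log2 fold change of 0.66 (standard error 0.04, edgeR adjusted p = 1.72e-16). Mki67 rose from 239, 239 and 216 CPM to 313, 302 and 310 CPM, a log2 fold change of 0.42 (standard error 0.04, edgeR adjusted p = 1.48e-10). The fitted rise of Top2a was the larger of the pair, where their falls in NRK-52E had been close. Pcna rose from 172, 182 and 179 CPM to 222, 215 and 227 CPM, a log2 fold change of 0.32 (standard error 0.04, edgeR adjusted p = 4.96e-08), and 25.0% of genes tested had a higher value.

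Ccnd1 was abundant in the fibroblasts and near level between the media. It stood at 1164, 1176 and 1103 CPM in untreated medium and at 1120, 1167 and 1119 CPM in cisplatin medium, and the groups overlapped. The log2 fold change was -0.01 (95% interval -0.09 to 0.06, edgeR adjusted p = 0.773). With library size as the only scaling it was 0.19 (edgeR adjusted p = 1.97e-05), so its direction in NRK-49F rests on the scaling.

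For the 6 genes that rose, every cisplatin-medium library lay above every untreated-medium library, which held for 32.7% of genes tested. Only 3 of the 6 (Cdk1, Top2a and Ccnb1) were called and changed by at least 1.5-fold, against 11.6% of genes tested. In the test against a 1.5-fold change 1 gene remained, Cdk1 (edgeR glmTreat adjusted p = 0.0496), where that test called 4.75% of genes higher.

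**Figure D2:**
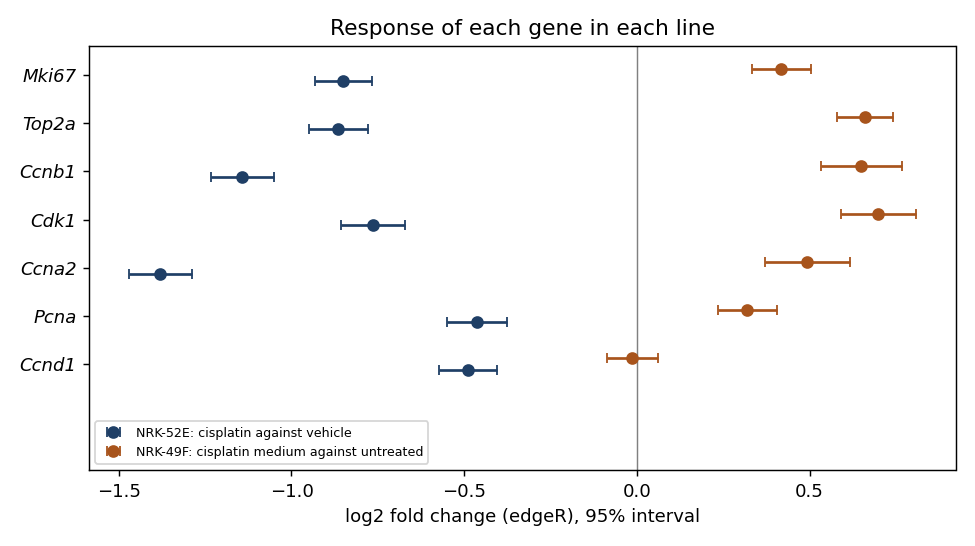
Log2 fold change of each of the 7 genes (x axis, edgeR, with 95% interval) in NRK-52E, cisplatin against vehicle, and in NRK-49F, cisplatin medium against untreated medium. The NRK-52E points all lie left of 0, between -1.38 and -0.46; the NRK-49F points of 6 genes lie right of 0, between 0.32 and 0.70, and that of Ccnd1 at -0.01.

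**Figure D3:**
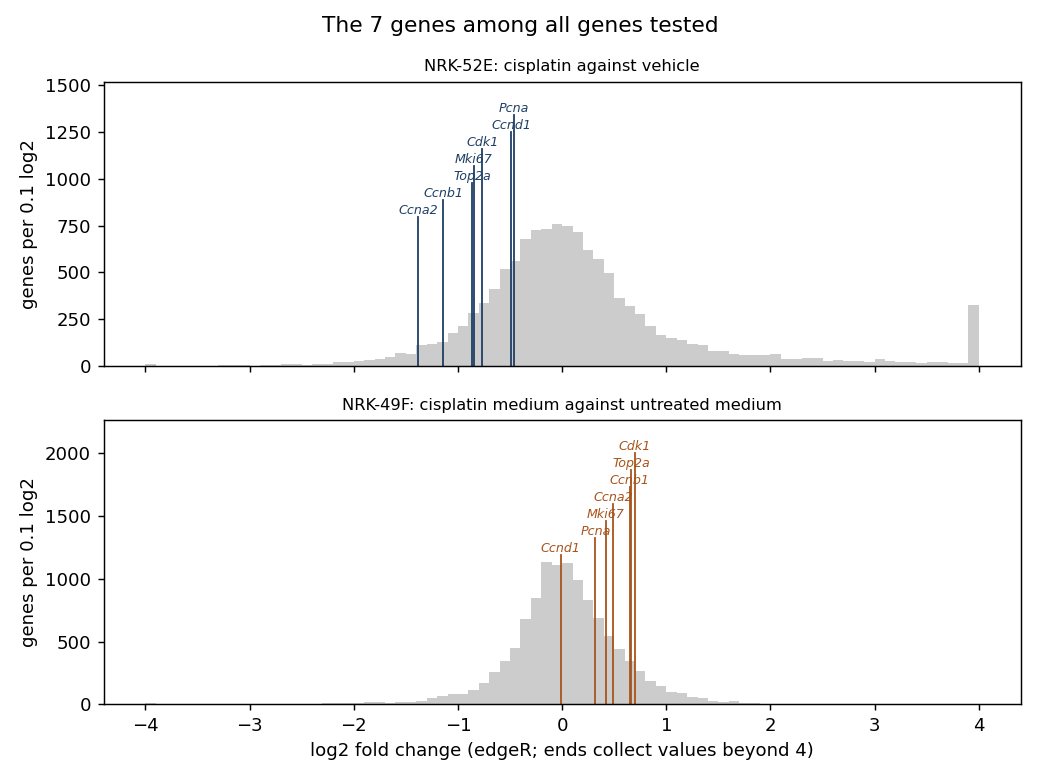
Log2 fold changes of all genes tested (grey bars, genes per bin of 0.1; the end bars hold all values beyond 4) with lines at the 7 genes (12508 for NRK-52E, 11525 for NRK-49F). In NRK-52E the lines stand in the lower part of the distribution, with Ccna2 outermost, and in NRK-49F in its upper part, with Cdk1 outermost and Ccnd1 near the centre.

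The responses of the lines were then set against each other in a single edgeR fit of all 12 libraries. The log2 response was lower in NRK-52E than in NRK-49F for all 7 genes, a call made for 32.6% of the 13127 genes tested (39.6% with library size only, where all 7 were called lower too). The difference was widest for Ccna2, at -1.85 (standard error 0.08, edgeR adjusted p = 7.27e-26), and for Ccnb1, at -1.77 (standard error 0.07, edgeR adjusted p = 1.67e-25). It was -1.51 for Top2a, -1.45 for Cdk1 and -1.25 for Mki67, and smaller for Pcna, at -0.76 (edgeR adjusted p = 2e-15). For Ccnd1 it was -0.46 (standard error 0.06, edgeR adjusted p = 6.62e-10), which comes from its fall in NRK-52E beside a near-level value in NRK-49F. The lines received different agents, a drug and a medium, so line and agent cannot be told apart.

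The same fit gave the gap between the lines in each state. In the control state, NRK-52E vehicle against NRK-49F untreated medium, 6 of the 7 genes were higher in NRK-52E and Ccnd1 was lower; each of these directions was called for 40.9% of genes tested. The gap was 2.11 on the log2 scale for Ccnb1 (standard error 0.05, edgeR adjusted p = 2.76e-35), 1.96 for Cdk1, 1.82 for Ccna2, 1.37 for Top2a, 1.20 for Mki67 and 0.89 for Pcna. Ccnd1 went the other way, at -1.79 (standard error 0.04, edgeR adjusted p = 2.82e-37), or 1148 ± 39.4 CPM in NRK-49F against 332 ± 5.02 CPM in NRK-52E (SD, n = 3 each). NRK-49F in untreated medium therefore had more of the G1 cyclin transcript than NRK-52E given vehicle, and less of the other 6 transcripts. These groups differed in both line and medium, which cannot be told apart here. With library size only, the median of all genes moved by 0.49 toward NRK-52E, and the share of genes called higher became 58.7% and lower 26.5%; the 7 genes kept their directions and calls.

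Between NRK-52E with cisplatin and NRK-49F in cisplatin medium the gaps were narrow with TMM scaling, except for Ccnd1. Mki67 averaged 298 ± 8.81 CPM in NRK-52E and 308 ± 5.76 CPM in NRK-49F (SD, n = 3 each), a log2 difference of -0.05 (95% interval -0.13 to 0.03, edgeR adjusted p = 0.269). Ccna2 averaged 84.3 ± 1.24 and 86.1 ± 5.73 CPM, a log2 difference of -0.03 (95% interval -0.14 to 0.07, edgeR adjusted p = 0.579). Neither pair was distinguishable beyond its spread with TMM scaling.

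Top2a was lower in NRK-52E, at -0.13 (edgeR adjusted p = 0.00338), although single libraries of the groups overlapped. With library size only, the median of all genes moved by 0.31, and the differences of Mki67, Top2a and Ccna2 turned to 0.27, 0.18 and 0.28, so for these 3 genes the order of the lines rests on the scaling. Cdk1 (0.51, edgeR adjusted p = 2.77e-13), Ccnb1 (0.33, edgeR adjusted p = 7.7e-08) and Pcna (0.12, edgeR adjusted p = 0.00692) were higher in NRK-52E, a direction called for 42.6% of genes tested. With library size only their differences were wider, at 0.83 for Cdk1, 0.65 for Ccnb1 and 0.44 for Pcna (edgeR adjusted p = 4.05e-13 for Pcna). Under that scaling 6 of the 7 genes were called higher in NRK-52E and Ccnd1 lower, against 56.2% and 28.6% of genes tested. With TMM the Pcna call was lost without the second NRK-49F cisplatin-medium library (0.09, edgeR adjusted p = 0.0756) and with no filter on low counts (0.09, edgeR adjusted p = 0.0753). Ccnd1 was lower in NRK-52E by a wider gap than in the control state, at -2.25 (edgeR adjusted p = 1.17e-40); with Top2a it made 2 genes called lower, where 40.1% of genes tested were. In the test against a 1.5-fold change only Ccnd1 was called between these groups, and that test called 22.5% of genes lower.

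**Figure D4:**
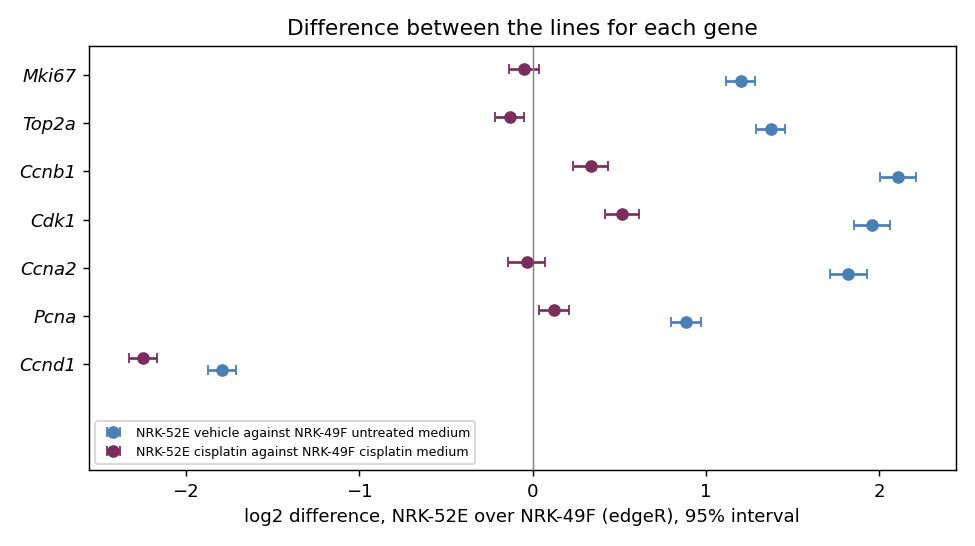
Log2 difference of each gene between the lines (x axis, NRK-52E over NRK-49F, edgeR, with 95% interval), for the control groups and for the cisplatin groups, with TMM scaling. For 6 genes the control gap of 0.89 to 2.11 shrinks to between -0.13 and 0.51, while Ccnd1 goes from -1.79 to -2.25.

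In order of level, Mki67, Ccna2 and Top2a each had NRK-52E vehicle on top, NRK-52E cisplatin and NRK-49F cisplatin medium close together, and NRK-49F untreated medium at the bottom. Ccnb1, Cdk1 and Pcna had the same top and bottom, with NRK-52E cisplatin above NRK-49F cisplatin medium. For Ccnd1 the 2 NRK-49F groups were on top and did not differ beyond their spread, followed by NRK-52E vehicle and then NRK-52E cisplatin. For the other 6 genes every NRK-52E cisplatin library lay above every NRK-49F untreated-medium library, as for 43.6% of the 13127 genes. Every NRK-52E vehicle library of these 6 lay above every NRK-49F cisplatin-medium library, as for 40.3% of genes, and neither gap was tested. The SD within a group was 1.47% to 7.75% of the mean over all combinations of gene and group, largest for Ccnb1 in untreated medium, where counts were 580, 537 and 506.

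Ratios of gene pairs within a library do not depend on how libraries are scaled. The 4 ratios examined gave 8 comparisons of 3 libraries against 3, for which the exact two-sided permutation test cannot go below p = 0.1 (0.133 after Benjamini-Hochberg adjustment over the 8). The log2 ratio of Ccnd1 to Mki67 was -0.68 ± 0.04 with vehicle and -0.32 ± 0.07 with cisplatin in NRK-52E, and 2.31 ± 0.04 in untreated and 1.88 ± 0.06 in cisplatin medium in NRK-49F (SD, n = 3 each, exact permutation p = 0.1 for each). Neither pair of groups overlapped. Relative to Mki67, the G1 cyclin transcript was thus at a higher value in every cisplatin library of NRK-52E. It was at a lower value in every cisplatin-medium library of NRK-49F. Such separation was common among single genes. Cisplatin and vehicle libraries did not overlap, in either direction, for 77.5% of genes tested (NRK-52E). For the media the share was 65.6% (NRK-49F). The share among ratios of other gene pairs was not examined, so lack of overlap, here and for the ratios below, is description only.

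The log2 ratio of Ccnb1 to Ccna2 had higher values after treatment in both lines. It went from 0.23 ± 0.09 to 0.47 ± 0.03 in NRK-52E and from -0.05 ± 0.01 to 0.11 ± 0.05 in NRK-49F (SD, n = 3 each, exact permutation p = 0.1 for each), with no overlap. Relative to Ccna2, Ccnb1 was at a higher value both where the 2 genes fell and where they rose. The log2 ratio of Pcna to Mki67 went from -0.69 ± 0.07 to -0.30 ± 0.01 in NRK-52E without overlap (SD, n = 3 each, exact permutation p = 0.1). In NRK-49F it was -0.38 ± 0.10 and -0.48 ± 0.03, and the groups overlapped (SD, n = 3 each, exact permutation p = 0.2, adjusted 0.229).

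The log2 ratio of Top2a to Mki67 was 0.29 ± 0.08 and 0.27 ± 0.07 in NRK-52E, where the groups overlapped (SD, n = 3 each, exact permutation p = 1). In NRK-49F it went from 0.11 ± 0.05 to 0.35 ± 0.02 without overlap (SD, n = 3 each, exact permutation p = 0.1).

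**Figure D5:**
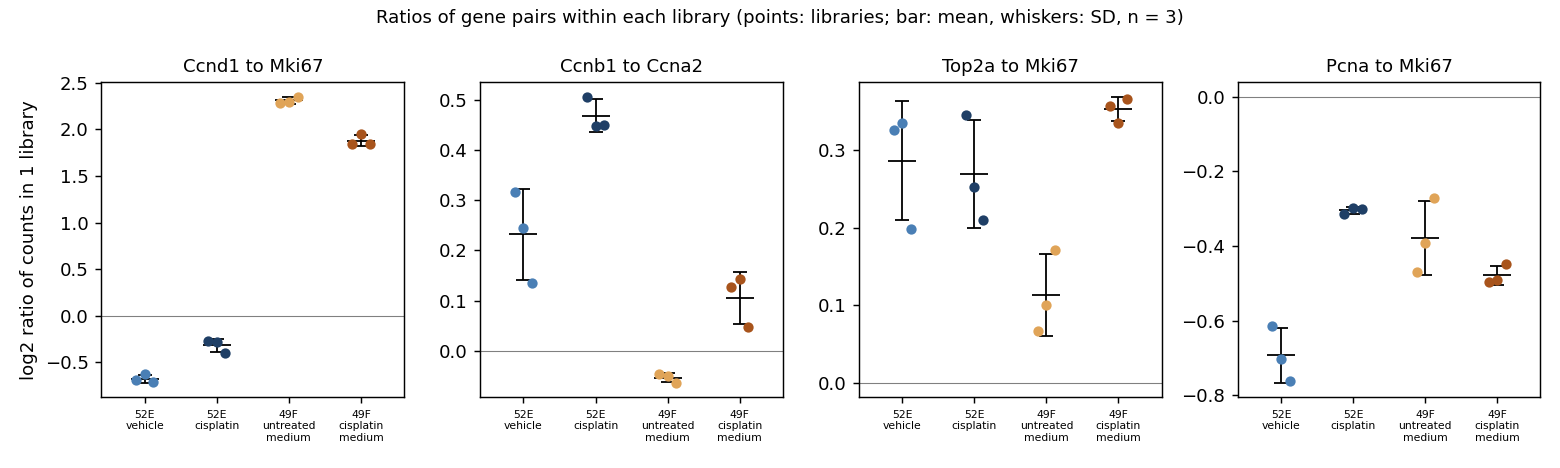
Log2 ratio of the counts of 2 genes in the same library (y axes, with separate ranges) for 4 gene pairs in the 4 groups (x axes); points are libraries, bars means and whiskers SD (n = 3). Ccnd1 to Mki67 goes up with cisplatin in NRK-52E and down with cisplatin medium in NRK-49F, and Ccnb1 to Ccna2 goes up in both.

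Likeness of pattern was measured as the root mean square difference of centred log2 CPM over the 12 libraries, among 9106 genes of at least 10 CPM. The libraries form 4 groups, so this is a description with no test. Mki67 and Top2a were 0.10 apart, which made Top2a the 15th nearest of 9105 other genes to Mki67 and Mki67 the 9th nearest to Top2a. Ccnb1 and Cdk1 were 0.15 apart, with Cdk1 the 11th nearest to Ccnb1 and Ccnb1 the 41st nearest to Cdk1. Each of these was the nearest of the other 6 to its gene, and the rest lay further off. To Mki67, Pcna was at rank 117, Ccna2 at 590, Cdk1 at 1451, Ccnb1 at 1469 and Ccnd1 at 8173. To Ccnb1, Ccna2 was at rank 47, Top2a at 266, Mki67 at 373, Pcna at 808 and Ccnd1 at 8251. Ccna2 had Ccnb1 as its nearest of the other 6, at rank 36, and Pcna had Mki67, at rank 309. Ccnd1 stood apart: its nearest of the other 6 was Pcna, at rank 6467.

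The genes outside the list that lay nearest to the mean profile of Mki67, Top2a, Ccnb1, Cdk1 and Ccna2 were ENSRNOG00000047235 (0.05 from it) and ENSRNOG00000046955 (0.07), which have no name here. ENSRNOG00000047235 was at 215 ± 4.31 and 110 ± 6.39 CPM in NRK-52E with vehicle and cisplatin, and at 67.2 ± 2.95 and 99.2 ± 2.97 CPM in NRK-49F with untreated and cisplatin medium (SD, n = 3 each). ENSRNOG00000046955 was at 338 ± 5.03, 158 ± 8.81, 99.0 ± 2.46 and 155 ± 6.57 CPM in the same order (SD, n = 3 each).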

How the data were processed

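The authors deposited raw counts of reads per Ensembl rat gene, 1 column for each of the 12 libraries, matched here by sample title. The submitters' processing notes list STAR 2.7.10a, Subread and featureCounts. The build, annotation and strand setting were not given in the sources used here, so overlapping and antisense genes may share reads. Libraries were stranded TruSeq mRNA, per the labels' protocols.

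The 7 genes and the tests were chosen with earlier results of these data known. Whole tables were fitted with edgeR 4.0.16 in R 4.3.3 (filterByExpr with minimum count 10 and total 15, TMM, glmQLFit, glmQLFTest), with p-values adjusted by Benjamini-Hochberg over all genes tested. Each line was fitted apart; contrasts between lines used all 12 libraries. A standard error is the size of the log2 fold change divided by the root of its F statistic. Ratios added 0.5 to each count; centred log2 CPM used a prior count of 2. Steps were tested on simulated data. Within groups a chi-square of counts was 1.67 to 3.84 per degree of freedom, so no 2 libraries were treated as the same library sequenced again. That check cannot tell separate cultures from separate preparations of the same culture. Alternatives were DESeq2 1.42.0, other scalings and filters, a test against a 1.5-fold change, a replicate block, one fit of all libraries, and leaving out each library.

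Named genes were the 7 and the 2 nearest in profile. Further lists of cell cycle genes and cell type markers, fixed by symbol, were not analysed here, since RefSeq's gene table (GRCr8) matched none of the identifiers. Figures were drawn with matplotlib 3.10.9.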

Additional observations from a re-analysis of the deposited data

Results flagged for a closer look

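A contrast of the lines' responses was called for each of the 7 genes, and for that reason they are listed. The log2 response in NRK-52E minus that in NRK-49F was -1.25 for Mki67, -1.51 for Top2a, -1.77 for Ccnb1, -1.45 for Cdk1, -1.85 for Ccna2, -0.76 for Pcna and -0.46 for Ccnd1 (edgeR, all 12 libraries). A lower response in NRK-52E was called for 32.6% of the 13127 genes tested. Single deviating libraries were not searched for, since each group has 3.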

How the results depend on the processing

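All 7 genes stayed called lower with cisplatin in NRK-52E under each alternative except the test against a 1.5-fold change, which kept 5 (13.1% of all genes were called lower by it). In NRK-49F that test kept 1 of 6 (4.75% of genes higher), and it kept 1 of 5, called lower, between the cisplatin groups of the lines (22.5% of genes lower); a higher threshold lowers such counts by construction. In NRK-49F, Ccnd1 turned to 0.19 with library size only, and lay between -0.0441 and 0.0024 when single libraries were left out, turning without the second untreated-medium library (0.0024) and without the third cisplatin-medium library (7e-04). Between the cisplatin groups, library size only turned Mki67, Top2a and Ccna2 to 0.27, 0.18 and 0.28. The log2 ratio of Top2a to Mki67 in NRK-52E, -0.02 over all libraries, ranged from -0.0612 to 0.0128 when single libraries were left out (0.0027 and 0.0076 for the others that turned it). The cause was not tested. With library size only, 5918 genes rose and 1926 fell in NRK-49F, against 3555 and 3568 with TMM. Within each line, same-numbered libraries did not deviate together (correlations -0.051 to 0.021), so the numbers were not taken as pairs. With a replicate block within each line, NRK-52E kept 7 genes called and NRK-49F 6. Same-numbered libraries of different lines were not compared. Depth limits none of these genes, whose lowest count was 506.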
